A study of Mus musculus with 8 samples.

Results

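The 84 genes described here code for the proteins of the cytoplasmic ribosome and were found among the 19787 genes of the deposited matrix by their symbols. The rule took every symbol of the form Rpl or Rps followed by a number, together with Rplp0, Rplp1, Rplp2 and Rpsa, and left out the S6 kinases. It found 52 genes of the large subunit and 32 of the small subunit, all with at least 1 count. Fau and Rack1, whose products also sit in the ribosome, fall outside the rule and are given separately.

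A ribosome holds a single copy of nearly every one of these proteins, so cells make them in matched amounts. Their messengers are short and abundant, carry a pyrimidine tract at the start (a TOP sequence) and are translated under the control of the TOR pathway. Most of a cell's ribosomal protein mRNA sits in the cytoplasm. Counts from isolated nuclei therefore sample the nuclear transcripts and whatever cytoplasmic RNA stays attached to or is captured with a nucleus.

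Wild-type C57BL/6 mice gave nuclei of low thoracic spinal cord, which were sequenced with 10x v3 chemistry in 8 libraries of 5 groups. The regenerating group (experiment 3, 1 library) held GFP-labelled (traced) neurons whose condition is labelled regen, with no injury or treatment named in the labels. The traced group (experiment 1, 2 libraries) held GFP-labelled neurons of uninjured mice, in an experiment on neurons that project to the lumbar cord. The hemisection group (experiment 2, 2 libraries) came from mice with natural repair after hemisection, and the uninjured control (experiment 2, 1 library) from mice without injury. The untraced group (experiment 1, 2 libraries) held GFP-negative nuclei of all classes from uninjured samples that carry the same numbers as the traced libraries. Per the labels' protocols, nuclei of the projection experiments passed a cell sorter, a step that is not described for experiment 2. The sources used here give neither age, time after injury nor the number of animals in a library, so p-values measure the spread between libraries. The uninjured control and the regenerating group have 1 library each, and they were assumed to vary like the replicated groups.

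The annotation deposited with the 12447 nuclei has 6 classes, and it names 4076 nuclei neurons. Against neurons, in the test described with the classes, all 7 microglia and macrophage markers were called higher in Microglia, all 10 oligodendrocyte markers in Oligodendrocytes, and all 6 markers each of vascular cells, astrocytes and oligodendrocyte precursors in their classes. Neuronal sums per library ran from 135012 UMIs (regenerating) to 20739862 UMIs (uninjured control). The median UMI number per neuron was 488 in the regenerating library and lay between 5767 and 16489.5 in the other 7 libraries. Within experiment 2 the uninjured control also stood apart in mitochondrially encoded transcripts. Levels are given throughout as CPM, UMIs per 1000000 UMIs of the nuclei summed. These transcripts made up 590 and 680 CPM in neurons of hemisection 1 and 2, against 4639 in the uninjured control. Some 4727 nuclei carry no barcode sequence, all 238 regenerating nuclei and 4489 non-neuronal nuclei of the uninjured control among them. Between the libraries with barcodes, at most 2 barcodes were shared by a pair.

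Promoter sequence was at hand for 64 of the 84 members, in RefSeq windows on GRCm38.p6 from 250 bases before to 50 after the start. The 6 members shown are the 3 with the lowest and the 3 with the highest hemisection minus uninjured control difference in neurons among the tested members with a window, each from 80 bases before to 30 after the start. Capitals mark CCGGAAG (an ETS-type core) or AAGATGG (a YY1-type core) on either strand and CTTTCC (a pyrimidine run) on the sense strand. The last 2 letters of CTTTCC can be shared with CCGGAAG. The first 3 are the members with the lowest difference, at chr14:18270957-18271066 (minus strand), chr11:68901486-68901595 (plus strand) and chr3:90213619-90213728 (minus strand).
Rpl15: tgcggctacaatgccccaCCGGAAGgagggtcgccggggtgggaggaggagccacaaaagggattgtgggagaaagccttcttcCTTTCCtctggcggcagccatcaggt
Rpl26: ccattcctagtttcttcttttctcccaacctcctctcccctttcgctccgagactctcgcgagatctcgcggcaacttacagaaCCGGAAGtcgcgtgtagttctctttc
Rps27: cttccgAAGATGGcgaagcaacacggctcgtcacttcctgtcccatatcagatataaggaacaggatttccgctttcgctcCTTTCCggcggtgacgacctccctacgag

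The other 3 are the members with the highest difference, at chr9:66946006-66946115 (plus strand), chr12:69184038-69184147 (minus strand) and chr17:27635215-27635324 (minus strand).
Rps27l: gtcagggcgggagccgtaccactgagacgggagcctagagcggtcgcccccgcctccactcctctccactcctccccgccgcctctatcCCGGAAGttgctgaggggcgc
Rpl36al: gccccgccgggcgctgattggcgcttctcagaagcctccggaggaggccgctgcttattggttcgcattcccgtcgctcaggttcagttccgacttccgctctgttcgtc
Rps10: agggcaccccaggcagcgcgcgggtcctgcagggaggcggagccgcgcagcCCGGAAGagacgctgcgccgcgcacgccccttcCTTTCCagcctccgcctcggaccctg

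Marked letters occur in all 3 promoters with the lowest difference and in 2 of the 3 with the highest, so they do not separate these members. Over the whole 300-base windows, CCGGAAG was present in 39.06% of the 64 members' promoters, against 9.121% of all 27025 promoters. CTTTCC was present in 35.94% of the members' promoters, against 14.05% of all, and AAGATGG in 14.06% against 6.475%. TATAAA, the TATA box core, was present in 9.375% of the members' promoters and in 8.881% of all.

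A UMI counts a captured molecule whatever its length, so levels were not divided by length. In neurons the order of the members varied with the library. Among the 84, Rpl41 ranked between 1 and 6 and Rpl6 between 1 and 9 in each of the 8 libraries. Rps29 ranked 1 in the uninjured control, with 136 CPM, and between 8 and 43 in the other 7 libraries. Over all libraries together, Rpl10l was seen with 1 UMI in neurons, Rpl39l with 2 and Rpl3l with 45. These paralogues are known from testis (Rpl10l, Rpl39l) and muscle (Rpl3l), and their main copies Rpl10, Rpl39 and Rpl3 were all tested. No single gene dominated a class: summed over libraries, the leading member held 3.64% of all member UMIs in Astrocytes and 3.15% in Vascular (Rps29 in both).

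Summed over the 84 genes, neurons had the lowest level of any class in each of the 5 libraries with at least 20 nuclei of another class. The comparison asks how the genes differ between cell classes of the same libraries. In Microglia the sum was 6871 and 9810 CPM in hemisection 1 and 2, 12478 in the uninjured control, and 4565 and 4921 in untraced 1 and 2. In Oligodendrocytes it was 3950 and 5353 in hemisection 1 and 2, 8580 in the uninjured control, and 2523 and 2100 in untraced 1 and 2. In neurons of the same libraries it was 2274 and 2398, 4355, and 2503 and 1378. Microglia were 1.82 to 4.09 times the neurons of their own library, and Oligodendrocytes 1.01 to 2.23 times. Vascular nuclei, sufficient in the uninjured control alone, had the highest sum of all at 15677 CPM. Mitochondrially encoded transcripts made up 24348 CPM in these nuclei, against 4639 in neurons of that library, and neuronal markers 2268 against 19705 CPM. The part of captured cytoplasmic RNA in the class sums was not tested.

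**Figure D1:**
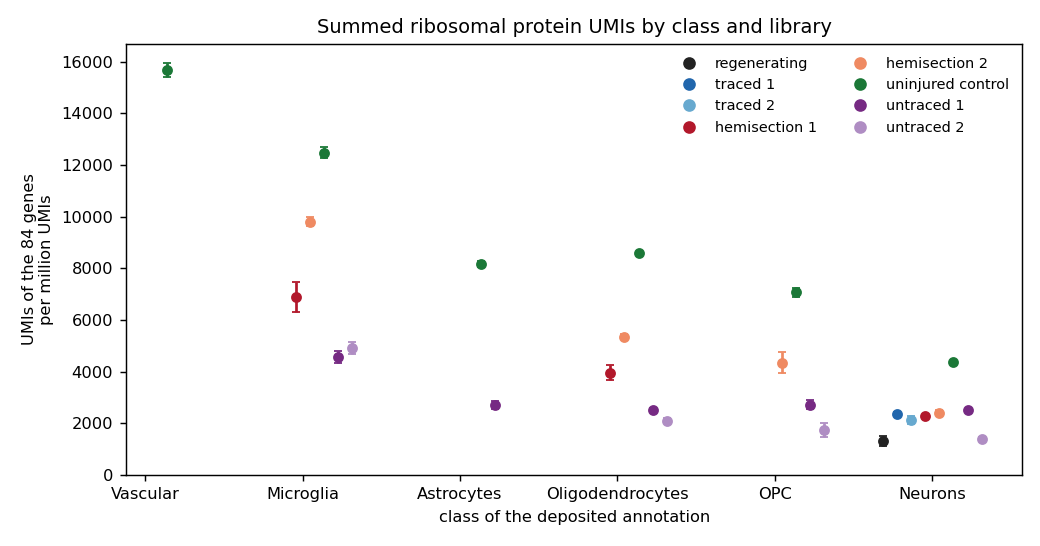
Summed level of the 84 genes in CPM (y axis) for each class (x axis) and library (colour), for sums of at least 20 nuclei. Bars are 95% exact (Clopper-Pearson) intervals, which cover counting error only. Within the uninjured control, Vascular (15677) and Microglia (12478) lie above neurons (4355).

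Gene by gene, sums per library and class were compared within libraries by edgeR's quasi-likelihood test, with a gene counted as called below 0.05 after Benjamini-Hochberg adjustment over 13848 genes. Of the 84 members, 81 passed the filter on low counts (all but Rpl3l, Rpl39l and Rpl10l). In Microglia, 70 of 81 were called higher than in neurons, against a background of 24.0% of all genes called higher, and 0 were called lower (background 30.4%). In Vascular 55 were called higher (background 13.3%), in Oligodendrocytes 40 (background 21.3%), in Astrocytes 9 (background 13.5%) and in OPC, the oligodendrocyte precursor cells, 4 (background 8.48%). The shares of members called in Astrocytes and OPC were below their backgrounds, so the genes named there are single genes and no feature of the set. No member was called lower in any of these 5 comparisons. The median log2 difference of the members was 1.11 in Microglia, 1.28 in Vascular, 0.60 in Oligodendrocytes, 0.45 in Astrocytes and 0.37 in OPC. Vascular rests on 1 library and Astrocytes on 2. In Microglia the count ran from 55 to 68 when 1 library was left out. The share of all genes called without a library is not given here, so such counts show only how far the calls depend on it. In Astrocytes the count was 0 without the uninjured control, 3 without untraced 1 and 4 without hemisection 2, in Oligodendrocytes it was 24 without hemisection 2 and 28 without the uninjured control, in Microglia it was 66 without the uninjured control, and in OPC it was 2 without untraced 2, hemisection 2 or the uninjured control. In the uninjured control all 4489 nuclei of the other classes lack a barcode sequence and all 2148 neurons have one, so in that library a preparation of their own for these classes cannot be told apart from the class. This touches each of the 5 comparisons, and the Vascular values rest on that library alone. Oligodendrocyte markers were also called higher in Microglia than in neurons, 10 of 10, and their part in the result was not tested.

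Rplp0, the base of the stalk that recruits elongation factors to the ribosome, was called higher in each of the 5 classes. In Microglia it had 72.5 and 109.7 CPM in hemisection 1 and 2, 76.5 in the uninjured control, and 36.0 and 46.6 in untraced 1 and 2. In neurons it had 13.5 and 16.2 CPM, 21.4, and 12.8 and 6.71 in the same libraries. Every microglial value was above every neuronal value, with a log2 difference of 1.81 ± 0.24 (SE). In Vascular its log2 difference was 2.11 ± 0.36, in Oligodendrocytes 1.44 ± 0.23, in Astrocytes 1.01 ± 0.32 and in OPC 0.90 ± 0.32 (adjusted p = 0.0478).

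Among members with a mean of at least 20 CPM, the largest rises in Microglia were Rpl10a (log2 1.82 ± 0.25) and Rps9 (1.82 ± 0.26), and Rplp0, Rps29 (1.74 ± 0.32) and Rplp1 (1.54 ± 0.24) were also among the leading members. Rpl10a belongs to the large subunit and Rps9 and Rps29 to the small. In Vascular the leading members included Rplp0, Rps16 (1.93 ± 0.37), Rpl18 (1.82 ± 0.35), Rpl7 (1.76 ± 0.42) and Rps12 (1.70 ± 0.37). In Oligodendrocytes Rplp0 was followed by Rpl18 (1.17 ± 0.22), Rps27a (1.08 ± 0.25), Rps10 (1.07 ± 0.23) and Rps4x (0.96 ± 0.27). Rps27a encodes a ribosomal protein fused to ubiquitin. Astrocytes had Rpl28 (1.07 ± 0.37), Rps9 (1.04 ± 0.34), Rplp0, Rps25 (0.91 ± 0.29), Rpl37 (0.88 ± 0.31) and Rpl35a (0.86 ± 0.31).

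In OPC the order was different: Rpl13, a protein of the large subunit, led with a log2 difference of 1.60 ± 0.27 (adjusted p = 0.000218). It had 116 CPM in OPC of hemisection 2, 206 in the uninjured control, and 160 and 86.1 in untraced 1 and 2. The gene overlaps the gene model Gm20388 of the same matrix, so counts of this gene are less certain. Rps10 (1.14 ± 0.31), Rplp0 and Rpl18 (0.89 ± 0.28) were the other members called.

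**Figure D2:**
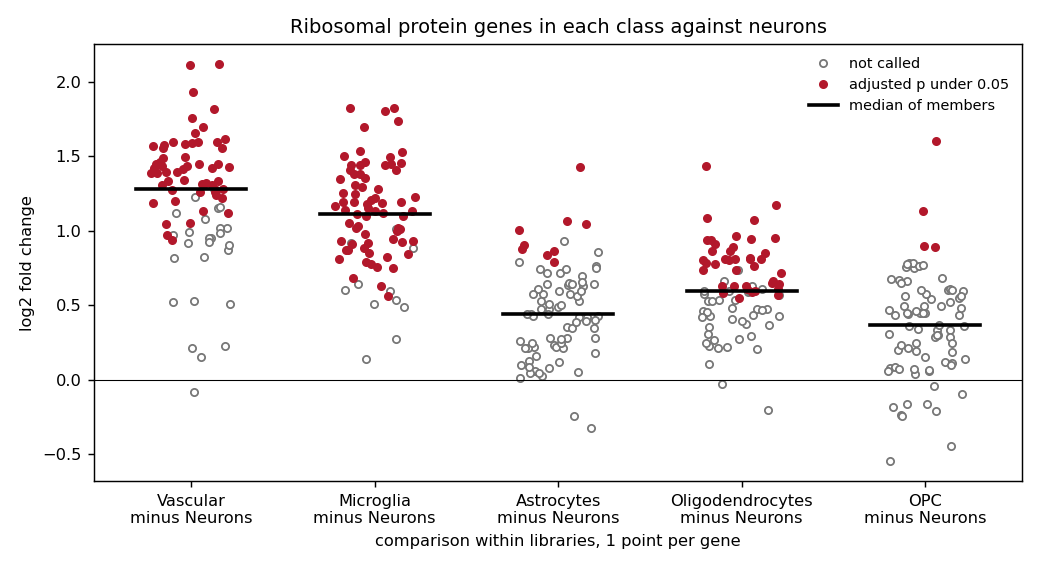
Log2 fold change of each tested member (1 point per gene, y axis) in 5 classes against neurons of the same libraries (x axis). Red points were called, open points were not, and the bar is the median, which lies between 0.37 (OPC) and 1.28 (Vascular).

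Divergent copies stood lower in Microglia than the copies they resemble, an order that did not hold in every class. In OPC, Rps27l was at 0.76 ± 0.52 and Rps27 at 0.09 ± 0.36, neither of them called. Rpl22l1, Rpl36al and Rpl7l1 stood below their main copies in OPC too. In Microglia, Rpl22 was called higher (log2 0.82 ± 0.25) while its paralogue Rpl22l1 was at 0.14 ± 0.36 and was not called. Rps27 was called (1.02 ± 0.28) and Rps27l was not (0.89 ± 0.41, adjusted p = 0.0726). Rpl36a was called (1.05 ± 0.32) and Rpl36al was not (0.64 ± 0.35), while Rpl7 (1.19 ± 0.29) and Rpl7l1 (0.69 ± 0.28) were both called. The difference between a copy and its paralogue was not tested. Rplp2 (1.19 ± 0.24) and Rpsa (1.02 ± 0.24), which is also known as a laminin receptor, were called as well.

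After hemisection, neurons had a much lower ribosomal protein share than the uninjured control of experiment 2. Their share was 0.91 and 0.96 times that of untraced 1 (hemisection 1 and 2), and 1.65 and 1.74 times that of untraced 2. The comparison within experiment 2 asks how neurons differ after natural repair. The summed level was 2274 and 2398 CPM in hemisection 1 and 2, against 4355 in the uninjured control. Of the 80 members that passed the filter (all but Rpl13a, Rpl3l, Rpl39l and Rpl10l), 16 were called lower and 0 higher. The background was 4.61% of 11601 genes called lower. The median log2 difference of the members was -0.81, against 0.03 for all genes tested, and 76 of 80 were negative. Both subunits took part, with 8 of 48 large and 8 of 32 small subunit members called.

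Rps29, a small zinc-binding protein of the 40S head, had the largest fall. It had 35.1 and 25.8 CPM in hemisection 1 and 2, against 136 CPM in the uninjured control, a log2 difference of -1.99 ± 0.26 (adjusted p = 0.000366). Rpl26, a large subunit protein, had 24.4 and 19.1 CPM in hemisection 1 and 2, against 71.1 CPM in the uninjured control (log2 -1.55 ± 0.29). Rps27, another zinc-binding protein of the small subunit, had 30.5 and 26.8 CPM in hemisection 1 and 2, against 81.5 CPM in the uninjured control (log2 -1.38 ± 0.29). For these 3 genes both hemisection libraries lay far below the uninjured control. Rps23, a protein of the decoding centre, had 24.3 and 25.8 CPM in hemisection 1 and 2, against 67.5 CPM in the uninjured control (log2 -1.34 ± 0.27). Rpl38, known in mice for its part in translating Hox messengers, had 41.3 and 44.0 CPM in hemisection 1 and 2, against 112 CPM in the uninjured control (log2 -1.30 ± 0.24). Rplp1 of the stalk had 42.9 and 54.5 CPM in hemisection 1 and 2, against 116 CPM in the uninjured control (log2 -1.18 ± 0.28, adjusted p = 0.0200).

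The fall was not shared by all members. Rplp0 (log2 -0.47 ± 0.40), Rplp2 (-0.88 ± 0.29) and Rpsa (-0.38 ± 0.36) were not called. Rpl22 had 24.1 and 33.5 CPM in hemisection 1 and 2, against 29.8 CPM in the uninjured control (log2 -0.01 ± 0.32), so its groups overlapped. Its paralogue Rpl22l1 had 20.02 and 4.78 CPM in hemisection 1 and 2, against 38.3 CPM in the uninjured control (log2 -1.23 ± 0.46, adjusted p = 0.145). Rpl36al (0.17 ± 0.55) and Rps27l (0.03 ± 0.75) had small positive differences with wide errors, and Rpl7l1 (-0.62 ± 0.38) and Rpl36a (-0.78 ± 0.37) were not called. Rps10, a protein of the 40S head, had 11.7 and 24.9 CPM in hemisection 1 and 2, against 9.60 CPM in the uninjured control, the only sizeable positive difference (log2 0.84 ± 0.45, adjusted p = 0.330).

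**Figure D3:**
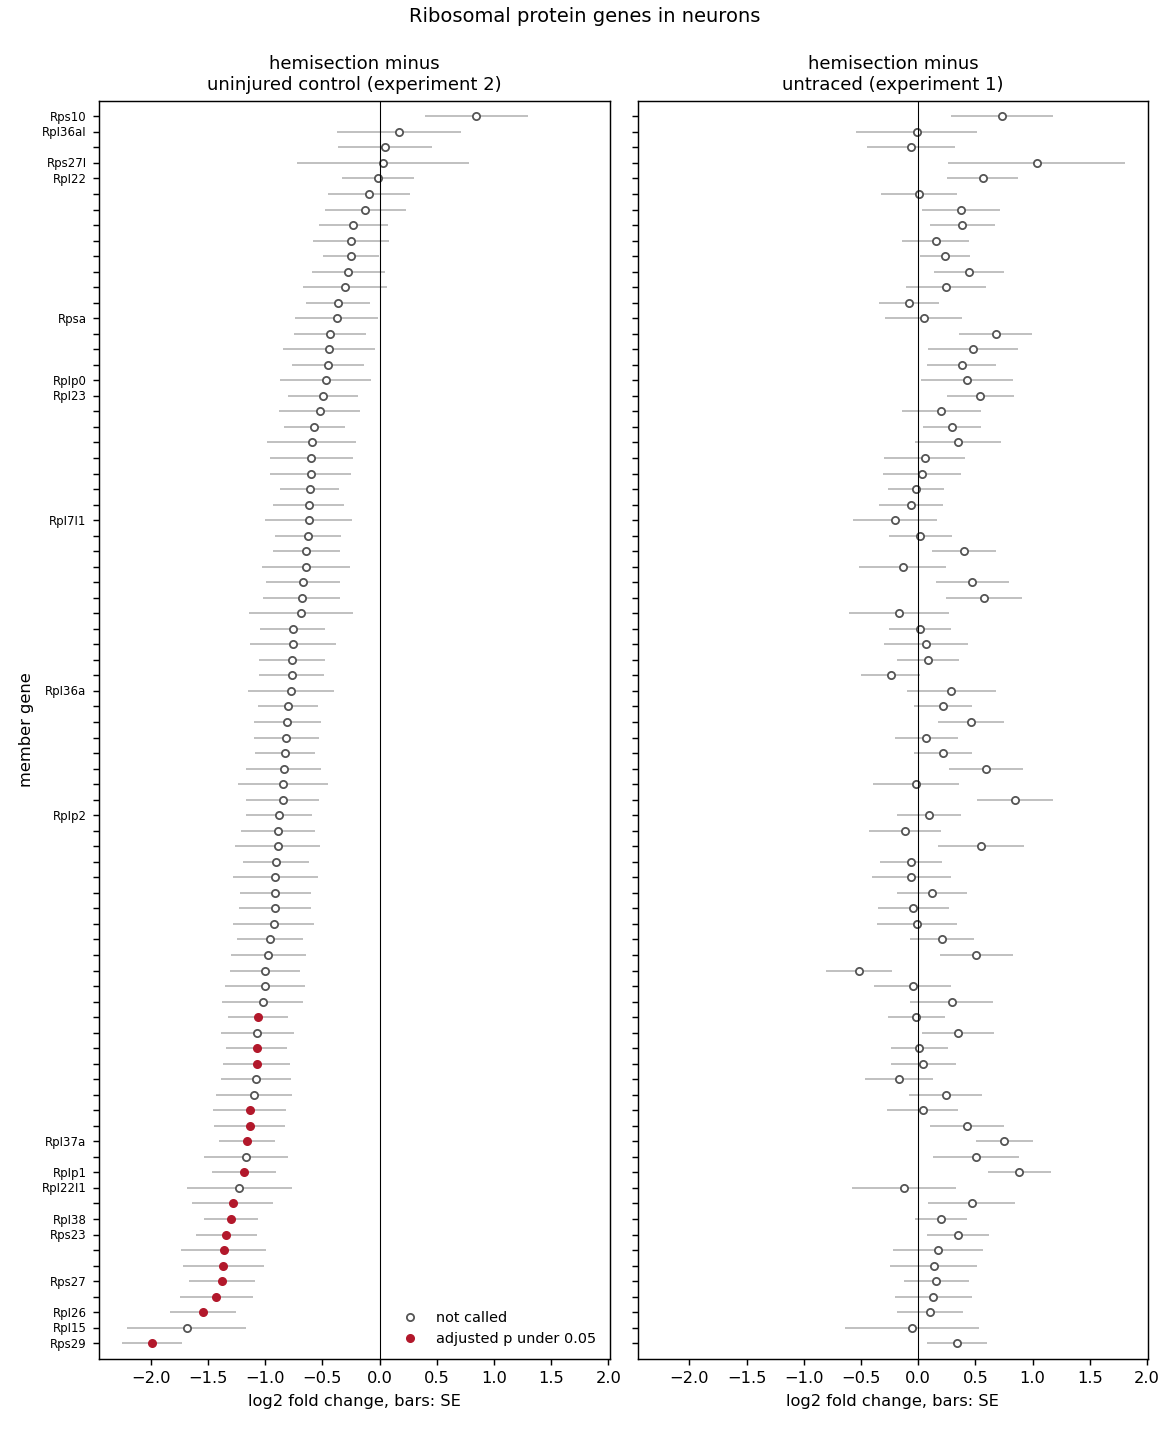
Log2 fold change with its SE (x axis) of the 80 tested members in neurons, ordered by the left panel (y axis), with the names of members described in the text. Left, hemisection minus the uninjured control, where 16 members were called (red). Right, hemisection minus the untraced libraries, where 0 were called and the values lie around a median of 0.17.

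The number of calls varied with the test, the filter, the libraries in the fit and each hemisection library. The share of all genes called under these settings is not given here. The counts therefore do not tell a change in the members from a change in all genes. Without hemisection 1 the count was 1, without hemisection 2 it was 5, by DESeq2 it was 1, with no filter on low counts 28 and with only the groups compared 54. The sample numbers pair the libraries of experiment 1, and with this replicate block the count was 43. The median difference stayed between -0.87 and -0.79 under all of these settings. Rps29 was called under each of them.

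Among other genes of translation, the 7 elongation factors summed to 211 and 219 CPM in hemisection 1 and 2, against 367 in the uninjured control. Of them 1 was called lower (Eef1b2), and their median log2 difference was -0.52. Of 28 translation initiation factors 0 were called (median -0.16), of 24 ribosome biogenesis factors 1 was lower (Fbl, fibrillarin) and of 13 tested TOR and growth control genes 0 were called. Fau and Rack1 were not called. Other short cytoplasmic messengers moved with the ribosomal protein genes: 8 of 15 abundant short mRNAs and 17 of 28 nuclear-encoded respiratory chain subunits were lower. All 13 mitochondrially encoded transcripts were lower, with a median log2 difference of -2.86.

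Markers of other cells moved too. All 10 oligodendrocyte markers were called lower in the hemisection neurons, where they summed to 85.0 and 188 CPM in hemisection 1 and 2, against 798 in the uninjured control, and none of the 10 was at 0 in these libraries. The 6 astrocyte markers summed to 92.7 and 88.9 in hemisection 1 and 2, against 145 in the uninjured control, with 2 of 4 tested called lower. The 7 blood cell markers summed to 389 and 311 in hemisection 1 and 2, against 133 in the uninjured control (Cd79a was at 0 in hemisection 2), and the globin genes Hba-a1 and Hba-a2 were called higher. The part of captured cytoplasmic RNA and of RNA from other cells in the difference was not tested.

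Set against the untraced libraries of experiment 1, the hemisection neurons showed no such fall. Of 80 members 0 were called, and DESeq2 called 0 as well. The background was 0.190% of genes called in either direction. By edgeR 4 members had an unadjusted p under 0.05, beside 448 of all 11601 genes. The median log2 difference was 0.17, and 59 of 80 were positive. Rps29 had 35.1 and 25.8 CPM in hemisection 1 and 2, against 29.6 and 17.9 CPM in untraced 1 and 2 (log2 0.34 ± 0.26), so its groups overlapped. The smallest p belonged to Rplp1 (0.88 ± 0.28, adjusted p = 0.731), Rpl37a (0.75 ± 0.25), Rpl23 (0.54 ± 0.29) and Rpl22 (0.56 ± 0.31). Rps10 was at 0.73 ± 0.45. Without untraced 1 the median of the members was 0.76, still with 0 called. This comparison spans experiments, and sorting and experiment cannot be told apart from injury in it.

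The uninjured groups differed from each other by more. Against untraced neurons, the uninjured control had 21 of 80 members called higher and 0 lower, with a background of 2.07% called higher. The summed level was 4355 CPM in the uninjured control, against 2503 and 1378 in untraced 1 and 2. Rps29 (log2 2.33 ± 0.27), Rplp1 (2.07 ± 0.29), Rpl37a (1.91 ± 0.26), Rps23 (1.68 ± 0.28), Rpl26 (1.65 ± 0.30) and Rps27 (1.54 ± 0.30) led. This comparison shares the uninjured control library with the one after hemisection, so the values of both are not independent. It spans experiments, and sorting and experiment cannot be told apart from the group in it. The share of all genes called is not given for the settings that follow, so their counts show only how far the calls depend on them. Without untraced 1 the count was 40, and DESeq2 called 3. Mitochondrially encoded transcripts were called higher in 12 of 13 cases, and oligodendrocyte markers in 5 of 10, with a sum of 798 CPM in the uninjured control, against 249 and 267 in untraced 1 and 2.

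Neuron subtypes gave the same picture for the libraries with enough nuclei. In each of the 15 subtypes with at least 20 nuclei in both, hemisection 1 was below the uninjured control, with ratios from 0.43 in DE_Reln_Nmur2 to 0.72 in VIL_V1_Sp8 and a median of 0.53. In DE_Reln_Nmur2 the summed level was 2282 CPM in hemisection 1, against 5310 in the uninjured control. The uninjured control was above untraced 1 in 7 of 7 subtypes (ratios 1.57 to 2.12), while hemisection 1 was below untraced 1 in 4 subtypes and above it in 3. Weighting 8 subtypes equally gave 2562 and 2865 in hemisection 1 and 2, against 4922 in the uninjured control. Nuclei of a library share its preparation, so subtypes are not replicates and no test was made.

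Within the uninjured control the subtypes were ordered by how much RNA a nucleus gave. Motor neurons (MN) had the lowest level, 2537 CPM at a median of 18181 UMIs per nucleus. VIL_V0d_Bhlhe22 had the highest, 5950 CPM at a median of 7302.5 UMIs per nucleus, followed by DE_Cck_Cpne4 with 5825. Over 24 subtypes of this library the level and the median UMI number had a Spearman correlation of -0.93 and a Pearson correlation of -0.90. The points share 1 library and both measures contain the total UMI number. In hemisection 1 the Spearman correlation was -0.43 over 15 subtypes, and in untraced 1 it was -0.11 over 7.

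**Figure D4:**
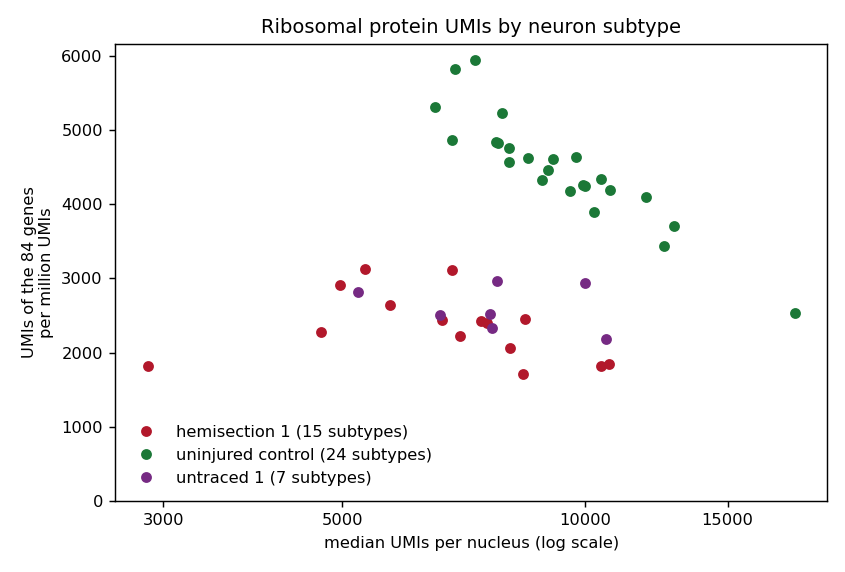
Summed level of the 84 genes in CPM (y axis) against the median UMIs per nucleus (x axis, log scale) for neuron subtypes with at least 20 nuclei in hemisection 1 (15 subtypes), the uninjured control (24) and untraced 1 (7). The uninjured control runs from 5950 in VIL_V0d_Bhlhe22 down to 2537 in MN.

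Between ventral and dorsal neurons, compared within libraries, the summed level differed in both directions. It was 2435.5 CPM in ventral against 2038 in dorsal neurons of traced 1 and 1540 against 1140 in the regenerating library. It was 2048 in ventral against 2403 in dorsal neurons of hemisection 1, 3855 against 4757 in the uninjured control and 2257 against 2634 in untraced 1. Of 78 tested members, 3 were called lower in ventral neurons and 0 higher, fewer than the background of 10.3% of all genes called lower, while 77 of 78 had a negative fitted difference and the median was -0.25. Rps21, a small subunit protein, had 39.3 CPM in ventral against 48.9 CPM in dorsal neurons of traced 1, and 27.5 against 47.1 CPM in hemisection 1. It had 72.4 CPM in ventral against 115 CPM in dorsal neurons of the uninjured control and 38.6 against 59.1 CPM in untraced 1, which made 4 of 4 libraries lower in ventral neurons (log2 -0.68 ± 0.14, adjusted p = 0.00114). The regenerating library, also in the fit, had 1 UMI in each family. Rpl41, the smallest ribosomal protein, was at -0.57 ± 0.15 and Rps15a at -0.47 ± 0.17 (adjusted p = 0.0465). The count was 1 without untraced 1 or without hemisection 1, and 10 without traced 1. The share of all genes called without these libraries is not given here. Between inhibitory and excitatory neurons 0 of 78 members were called by edgeR and 0 by DESeq2, beside a background of 17.9% called in either direction. By edgeR 5 members had an unadjusted p under 0.05, beside 2497 of all 9114 genes. The median of the members was -0.11.

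Glia of experiment 2 were next compared class by class, where both hemisection libraries and the uninjured control had at least 20 nuclei. The share of all genes called is given for the full fits only. Counts without a library therefore show only how far the calls depend on it. Glia of the uninjured control lack a barcode sequence and those after hemisection have one. A preparation of their own for the former cannot be told apart from the group. In Oligodendrocytes, 12 of 81 members were called lower after hemisection (background 4.77%) and 1 higher (background 2.83%), with a median log2 difference of -0.76. In Microglia, 7 of 79 were called lower (background 13.0%) and 1 higher (background 7.34%), with a median of -0.49, so the microglial share called lower was below its background. Without hemisection 1 the calls in either direction numbered 4 in Oligodendrocytes and 3 in Microglia, and without hemisection 2 they numbered 3 in Oligodendrocytes and 4 in Microglia. In Oligodendrocytes they numbered 27 without untraced 1 and 21 without untraced 2, which share the fit.

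The member called higher was Rps10 in both classes. In Oligodendrocytes it had 48.2 and 73.3 CPM in hemisection 1 and 2, against 18.5 CPM in the uninjured control (log2 1.92 ± 0.42, adjusted p = 0.00815). In Microglia it had 60.4 and 105.7 CPM in hemisection 1 and 2, against 24.5 CPM in the uninjured control (log2 1.94 ± 0.54, adjusted p = 0.00490). All 4 hemisection values lay above the uninjured control of their class, in the opposite direction to most other members. Counts were small in hemisection 1, with 8 UMIs in Oligodendrocytes and 5 in Microglia. Without hemisection 2 neither class passed the threshold (log2 1.40, adjusted p = 0.473 in Oligodendrocytes, and log2 1.21, adjusted p = 0.540 in Microglia). In untraced 1 and 2 Rps10 had 14.5 and 18.7 CPM in Oligodendrocytes and 24.0 and 61.2 CPM in Microglia. Against them the hemisection level was higher in Oligodendrocytes (log2 1.91 ± 0.37, adjusted p = 0.00453, and 0.586 without hemisection 2) and not called in Microglia (1.10 ± 0.46, adjusted p = 0.161). The annotation lists 4 pseudogenes named after Rps10, whose reads could be assigned to it or lost.

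Rpl22l1 was among the largest falls in both classes. In Oligodendrocytes it had 18.1 and 17.8 CPM in hemisection 1 and 2, against 65.8 CPM in the uninjured control (log2 -1.79 ± 0.45, adjusted p = 0.0190). In Microglia it had 24.2 and 20.01 CPM in hemisection 1 and 2, against 81.4 CPM in the uninjured control (log2 -1.96 ± 0.58, adjusted p = 0.00963). Its main copy Rpl22 was not called in either class, at -0.32 ± 0.43 in Oligodendrocytes and 0.37 ± 0.47 in Microglia. Without hemisection 2 the Rpl22l1 calls were lost (adjusted p = 0.377 and 0.334).

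Rps29 fell to 48.2 and 105 CPM in Oligodendrocytes of hemisection 1 and 2, against 297 CPM in the uninjured control (log2 -1.63 ± 0.33). In Microglia it had 145 and 213 CPM in hemisection 1 and 2, against 456 CPM in the uninjured control (log2 -1.24 ± 0.37), a call lost without either hemisection library (adjusted p = 0.0971 without hemisection 1 and 0.0652 without hemisection 2). Oligodendrocytes also had lower Rps6 (log2 -1.75 ± 0.42), the substrate of S6 kinase, and lower Rps18 (-1.51 ± 0.38), Rpl3 (-1.34 ± 0.36) and Rpl26 (-1.32 ± 0.34). Microglia had lower Rpl26 (-1.74 ± 0.42), Rps15 (-1.32 ± 0.42) and Rpl14 (-1.32 ± 0.45). Rplp0 had positive differences that were not called, 0.33 ± 0.36 in Oligodendrocytes and 0.40 ± 0.44 in Microglia. In these classes 13 of 13 and 12 of 12 tested mitochondrially encoded transcripts, and 26 and 28 of 28 nuclear-encoded respiratory chain subunits, were lower too. Neuronal markers in the same glia were called lower in 7 of 8 cases in Oligodendrocytes and in 8 of 8 in Microglia, where 10 of 10 oligodendrocyte markers were lower as well.

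**Figure D5:**
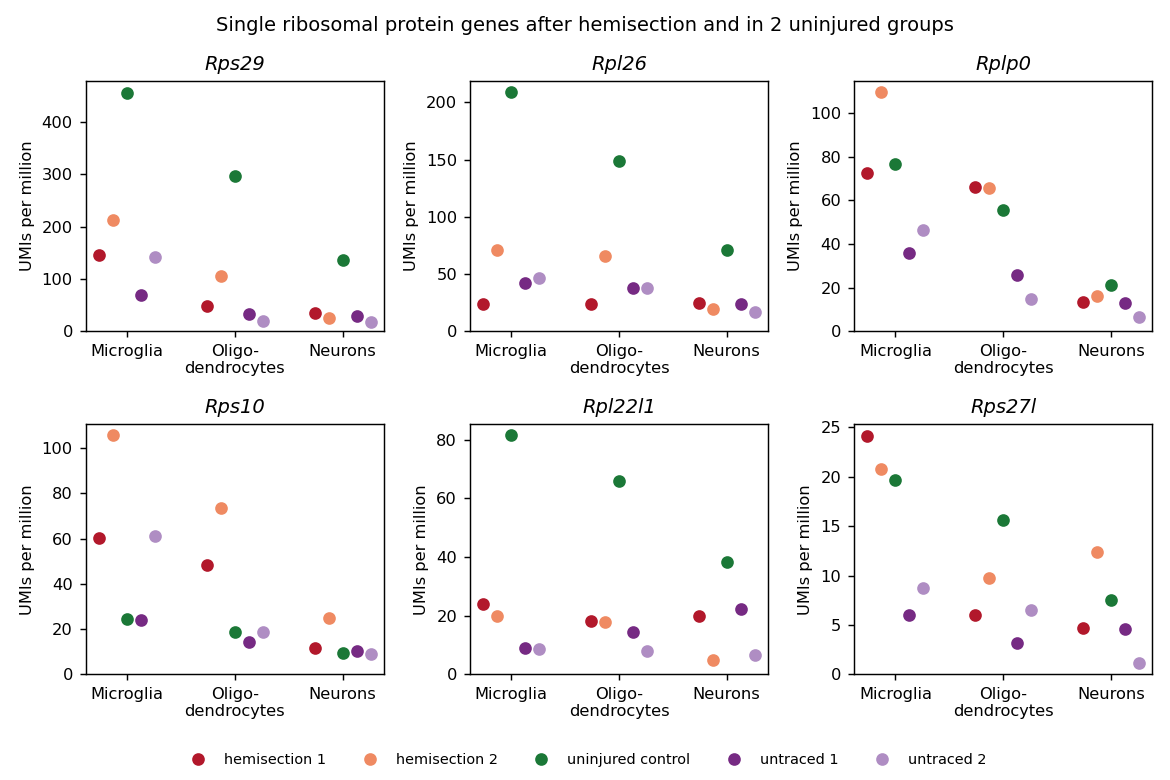
CPM (y axes from 0) of 6 members in Microglia, Oligodendrocytes and neurons (x axis), 1 point per library, for hemisection 1 and 2, the uninjured control and untraced 1 and 2. Rps29 and Rpl26 are highest in the uninjured control in all 3 classes, while Rps10 in glia is highest in hemisection 2.

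Against the untraced libraries, glia after hemisection had more ribosomal protein UMIs, a comparison added after the data were seen. In Oligodendrocytes 25 of 81 members were called higher (background 2.08%) and 0 lower, all 81 were positive, and the median log2 difference was 0.99. In Microglia 13 of 79 were called higher (background 4.44%) and 0 lower, with a median of 0.91. Rps19, mutated in human Diamond-Blackfan anaemia, had 36.1 and 49.3 CPM in Oligodendrocytes of hemisection 1 and 2, against 9.78 and 10.6 CPM in untraced 1 and 2 (log2 2.07 ± 0.36). Rpl39 had 84.5 and 132 CPM in Microglia of hemisection 1 and 2, against 27.0 and 26.2 CPM in untraced 1 and 2 (log2 2.11 ± 0.45). For both genes the groups did not overlap. The share of all genes called without a library is not given here, so the counts that follow show only how far the calls depend on it. Without hemisection 2 the count was 0 in both classes, and without untraced 1 it was 5 in Microglia. Mitochondrially encoded transcripts summed to 1909 and 1669 CPM in Oligodendrocytes of hemisection 1 and 2, against 817 and 1192 in untraced 1 and 2 (2 of 13 called higher). In Microglia they summed to 1558 and 2079 CPM in hemisection 1 and 2, against 549 and 1183 in untraced 1 and 2 (3 of 12 called higher). The 7 blood cell markers summed to 1186 and 919 CPM in Oligodendrocytes of hemisection 1 and 2, against 343 and 303 in untraced 1 and 2 (4 of 6 tested called higher). In Microglia they summed to 2645 and 2001 CPM in hemisection 1 and 2, against 1215 and 1728 in untraced 1 and 2 (2 of 6 called higher). The blood cell list holds Ptprc, Cd3e and Cd79a beside globin genes. Over all libraries it summed to 1648 CPM in Microglia and 195 in neurons. The part of Ptprc is not given, so the microglial sum is not read as a measure of blood cells. The part of mitochondrially encoded transcripts and of this list in the result was not tested. Sorting and experiment cannot be told apart from injury here either.

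The uninjured control exceeded the untraced libraries in glia by more than in any other comparison of these members between groups, with 68 of 81 called higher in Oligodendrocytes (background 7.34%) and 47 of 79 in Microglia (background 9.98%). Rps29 was at 3.21 ± 0.32 (log2) in Oligodendrocytes. In Oligodendrocytes mitochondrially encoded transcripts summed to 6426 CPM in the uninjured control, against 817 and 1192 in untraced 1 and 2, and neuronal markers to 2517 CPM in the uninjured control, against 262 and 378 in untraced 1 and 2. In Microglia mitochondrially encoded transcripts summed to 9576 CPM in the uninjured control, against 549 and 1183 in untraced 1 and 2, and neuronal markers to 3831 CPM in the uninjured control, against 282 and 606 in untraced 1 and 2. All tested genes of both lists were called higher in both classes, 13 and 12 mitochondrially encoded transcripts and 8 neuronal markers each, and their part in the result was not tested. In both glial classes the summed levels of hemisection 1 and 2 lay below the uninjured control and above untraced 1 and 2. Experiment, sorting and a preparation of their own for glia of the uninjured control cannot be told apart from the group. The share of all genes called without a library is not given here. Without untraced 2 the microglial count was 28.

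Whether a class differed from neurons in these comparisons was tested as an interaction within libraries. In the uninjured control all nuclei of the other classes lack a barcode sequence and all neurons have one. In interactions with that library, a preparation of their own for the other classes cannot be told apart from the class. For hemisection minus the uninjured control, 0 of 81 members were called in Microglia minus neurons (2 at an unadjusted p under 0.05, background 14.2%) and 0 in Oligodendrocytes minus neurons (0 at an unadjusted p under 0.05, background 6.98%). For hemisection minus untraced, 0 were called in Microglia (8 unadjusted, background 2.22%) and 0 in Oligodendrocytes (12 unadjusted, background 0.762%). For the uninjured control minus untraced, 0 were called in Microglia (2 unadjusted, background 9.10%). In Oligodendrocytes 1 was called higher, Rpl12 (20 unadjusted, background 8.26%). These backgrounds are of genes called after adjustment. Among all 13262 genes, 3169, 1976, 1373, 1026, 2618 and 2259 had an unadjusted p under 0.05, in the same order. The median log2 value of the members was 0.27, -0.14, 0.54, 0.56, 0.31 and 0.67, again in that order. For all genes tested it was -0.21, -0.14, -0.002, -0.12, 0.19 and 0.02. Of the 81 members, 62, 28, 74, 73, 59 and 77 were positive. The shift of the members as a set was not tested. DESeq2 was not run on these interactions, nor on the comparisons between groups within Oligodendrocytes or Microglia. The glial Rps10 difference was not shown to differ from the neuronal one (log2 0.67 ± 0.51 in Oligodendrocytes and 0.81 ± 0.59 in Microglia).

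Traced neurons, of the experiment on projections to the lumbar cord, were compared with untraced neurons of the same-numbered samples. The summed level was 2345 and 2126 CPM in traced 1 and 2, against 2503 and 1378 in untraced 1 and 2, so the groups overlapped. Of 80 members 0 were called by edgeR and 0 by DESeq2, and 0.362% of all genes were called in either direction. By edgeR 7 members had an unadjusted p under 0.05, beside 930 of all 11601 genes. The median log2 difference was 0.14, and 0.66 without untraced 1. Rpl36 had 42.7 and 36.0 CPM in traced 1 and 2, against 25.9 and 11.2 CPM in untraced 1 and 2 (log2 0.92 ± 0.35, adjusted p = 0.431). Rpl27a (0.62 ± 0.27), Rps29 (0.66 ± 0.29) and Rps27 (0.68 ± 0.32) followed, none of them called. The stalk genes and Rpsa were at -0.28 ± 0.52 (Rplp0), 0.67 ± 0.32 (Rplp1), -0.03 ± 0.33 (Rplp2) and 0.01 ± 0.37 (Rpsa).

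Regenerating neurons had a summed level of 1304 CPM, against 2345 and 2126 in traced 1 and 2. It rests on 176 member UMIs and has an exact (Clopper-Pearson) 95% interval of 1118 to 1511, which covers counting error only and holds the 1378 CPM of untraced 2. With nuclei thinned to 500 UMIs the level was 1239 CPM, against 2650 and 1440 in traced 1 and 2, after 125 of the 238 regenerating nuclei and 0 traced nuclei were left out as shallower. Of 80 members 0 were called by edgeR and 0 by DESeq2, with a background of 0.276% called in either direction. By edgeR 15 members had an unadjusted p under 0.05, beside 1709 of all 11601 genes. In this library 17 tested members were at 0 UMIs and 49 had 1 to 3. A count of 0 allows up to 22.2 CPM (3 UMIs of the library). This floor covers counting error only, so a fold bound set by it leaves out the spread between libraries. Rps27 had 0 UMIs, against 37.9 and 57.0 CPM in traced 1 and 2, and was thus at least 2.13-fold lower than the traced mean (adjusted p = 0.174). Rps15a and Rps9, also at 0, and Rpl27a, with 7.41 CPM, against 53.7 and 42.0 CPM in traced 1 and 2 (log2 -2.79 ± 0.93, adjusted p = 0.219), were the others with the smallest p. In the opposite direction Rplp0 had 44.4 CPM in the regenerating library, against 11.02 and 3.00 CPM in traced 1 and 2, and was not called. The median log2 difference was -1.03 as fitted, and -0.62 over 71 members once those at 0 were set to their bound or, where the traced mean was under the floor, left out. The median UMI number per nucleus in this library, 488, was far below 16489.5 and 12138 in traced 1 and 2. The part of depth in the difference was not tested. Regenerating nuclei are of experiment 3 and lack a barcode sequence, so experiment and preparation cannot be told apart from the group.

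The members spread over 19 chromosomes in GENCODE M21 (GRCm38), with mRNAs of 345 to 5179 bases. Among them 30 host a small nucleolar RNA, 17 overlap another gene of the matrix and 60 have pseudogenes named after them, and counts of these genes are less certain where reads could be shared. Rps29 (chromosome 12, 69157722 to 69159186, minus strand, mRNA of 390 bases) and Rps27 (chromosome 3, 90212522 to 90213651, minus strand, 345 bases) are among the shortest. The hemisection minus uninjured control difference in neurons had a median of -1.04 in the 26 shortest mRNAs (up to 681 bases), -0.68 in the 27 of middle length and -0.64 in the 27 longest. Its Spearman correlation with mRNA length was 0.35 over 80 members, which share the same libraries. For Microglia minus Neurons the correlation with length was -0.01 over 81 members. Other gene features and comparisons were correlated as well. The strongest Spearman value among them was -0.43, with coding length, for hemisection minus untraced in Oligodendrocytes.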

How the data were processed

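The values are raw UMI counts, deposited by the authors in a single matrix with nucleus names, gene symbols and an annotation (library, class, neuron subtype), which was used as given. Per the submitters' processing notes, the tools were Seurat 3 and Cell Ranger 4.0.0, and the builds GRCm38 and mm10. How nuclei were filtered, doublets removed and classes named was not given in the sources used here, and no further filter or doublet caller was applied. Here counts were summed per library and class or neuron family (at least 20 nuclei) and tested with edgeR 4.0.16 in R 4.3.3 (TMM, filterByExpr with a minimum count of 10 and total of 15, glmQLFit, glmQLFTest), adjusted over all genes by Benjamini-Hochberg. DESeq2 1.42.0 was an alternative for the neuron, class and family fits. The neuron fit held all 8 libraries and left 3 residual degrees of freedom, and for a group of 1 library the spread of the replicated groups was assumed. The fits within Oligodendrocytes and within Microglia each left 2. Class and family fits had the library as a block. SE are the log2 fold change over the root of the F statistic. Scripts were tested on simulated data.

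Groups came from the sample titles. Titles and nucleus-name prefixes give traced and untraced libraries the same sample number (healthy 1 or healthy 2), which pairs them. Across 11601 genes, the replicate difference in traced correlated with that in untraced at r = 0.10, and over 80 members at -0.14. Named in each comparison of neurons and classes are the called members with a mean of at least 20 CPM, up to 6 rises and 6 falls, filled to 4 by smallest p in neurons, as well as paralogues, stalk genes and Rpsa. Rps10, Rpl12 and other members outside this rule were named after their values were seen. The members and lists were chosen with earlier results of these data known. Promoters are from RefSeq and gene models from GENCODE M21. Some members that the rule names are not reported here.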

Additional observations from a re-analysis of the deposited data

Results flagged for a closer look

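Rpl12, a protein near the base of the ribosomal stalk, passed the threshold in a test of whether the difference between uninjured groups itself differed between classes. For the uninjured control minus untraced, the log2 difference in Oligodendrocytes minus that in neurons was 1.38 ± 0.48 (adjusted p = 0.0433, edgeR interaction). In Oligodendrocytes Rpl12 had 64.9 CPM in the uninjured control, against 11.7 and 10.6 CPM in untraced 1 and 2, and in neurons it had 35.7 CPM in the uninjured control, against 21.1 and 13.4 CPM in untraced 1 and 2. It was 1 of 81 members called, a smaller share than the 8.26% of all genes called higher in this interaction. The call thus shows nothing particular to the members. In 20 of the 81 the same interaction had an unadjusted p under 0.05, beside 2259 of all 13262 genes, and under RLE scaling 8 were called. Its log2 value was positive in 77 of the 81, with a median of 0.67, against 0.02 for all genes tested. The share of all genes called under RLE scaling is not given here. Rpl12 overlaps Lrsam1 in the annotation. Oligodendrocytes of the uninjured control lack a barcode sequence and its neurons have one, so a preparation of their own cannot be told apart from the class.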

How the results depend on the processing

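Direction was followed only for the named members that were called or filled in by smallest p. None of these changed direction under any setting run, while their calls were lost in 77 cases without a library and in 22 under another setting. Paralogues, stalk genes and Rpsa were not followed where they were named by value alone. For hemisection minus the uninjured control in neurons (16 called), DESeq2 called 1, no filter on low counts 28, only the groups compared 54, the replicate block 43, and leaving out a hemisection library 1 to 5. For the uninjured control minus untraced in neurons (21), DESeq2 called 3, no filter 35, the replicate block 25 and leaving out a library 16 to 40. The replicate block left 0 calls in the other 3 neuron comparisons. Against neurons, Astrocytes (9) had 21 under RLE scaling and 21 by DESeq2, 1 with no library block, 14 with at least 50 nuclei and 0 to 6 without a library. OPC (4) had 7 under RLE scaling, 7 by DESeq2, 2 with no library block and 2 to 4 without a library. Oligodendrocytes (40) had 6 with no library block and 24 to 44 without a library. Microglia (70) had 55 to 68 without a library. Ventral minus dorsal (3) had 12 with at least 10 nuclei and 1 to 10 without a library. Within classes, leaving out a library gave 3 to 27 calls for hemisection minus the uninjured control in Oligodendrocytes (13) and 3 to 10 in Microglia (8). Against untraced it gave 0 to 30 in Oligodendrocytes (25) and 0 to 15 in Microglia (13), and 28 to 43 for the uninjured control minus untraced in Microglia (47). The Rpl12 interaction count (1) was 8 under RLE scaling, a setting chosen after seeing the data. The summed ratio of hemisection over the uninjured control in neurons (0.536) was 0.638 with nuclei weighted equally and 0.684 with nuclei thinned to 500 UMIs. That of traced over untraced (1.15) was 0.903 when thinned. The causes were not tested. The share of all genes called is not given for these settings, so the counts show only how far the calls depend on them. Subtype weighting could not be done for traced over untraced or regenerating over traced, which had 0 shared subtypes of at least 5 nuclei in every library, and Vascular could not be fitted without the uninjured control. Depth limits the small sums, such as regenerating neurons, where 3 UMIs are 22.2 CPM.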

Other observations

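Other translation genes in Microglia were called in both directions. In Microglia minus Neurons, where 24.0% of all genes were called higher and 30.4% lower, 6 of 28 initiation factors were called higher and 1 lower, 3 of 7 elongation factors higher and 1 lower, and 1 of 24 ribosome biogenesis factors higher and 5 lower. The initiation factors were thus called no more often than all genes in either direction, and the biogenesis factors likewise. The elongation factor Eef1a1, the widespread form, was higher in Microglia (log2 1.47), Vascular (1.87) and Oligodendrocytes (1.13), while Eef1a2, the form of neurons and muscle, was lower in the same classes (-1.70, -1.93 and -1.69). Fau, whose product is a small subunit protein made as a ubiquitin-like fusion, was higher in these classes as well (2.10, 1.70 and 0.86).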
